A study of Mus musculus with 12 samples.

Results

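The endoplasmic reticulum (ER) chaperones described here are the genes Hspa5, Hsp90b1, Sdf2l1, Calr, Canx, Pdia3, Pdia4, Pdia6, P4hb and Xbp1. They were chosen by gene symbol: all 10 have 1 line each among the 45796 genes of the deposited table. RNA was measured with 3' end sequencing (QuantSeq FWD) in Vg4+Vd4+ gamma delta T cells, so named for their receptor chains, from skin-draining lymph nodes. All mice were C57BL/6, and there were 3 libraries in each of 4 groups. Imiquimod cream was given to an NF-kB1-deficient and a wild-type group, and sham cream likewise to an NF-kB1-deficient and a wild-type group. NF-kB1 is made as p105 and matures into the NF-kB family member p50, and imiquimod is a Toll-like receptor agonist that gives a psoriasis-like inflammation on mouse skin. Not stated in the labels are the part of Nfkb1 that was changed, any limit of the change to 1 cell type, the age of the mice, the number of cream applications and any pooling of cells. Nor do the labels say that the 3 libraries of a group came from separate mice, so the p-values rest on the spread among these libraries, and that spread may be technical.

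Proteins made for the cell surface or for secretion fold in the ER. HSP70- and HSP90-type chaperones hold the unfolded chain, lectin chaperones hold chains that carry a trimmed sugar, and disulfide isomerases join cysteines into the right pairs. When unfolded chains build up, the unfolded protein response raises this machinery through the transcription factors ATF6, XBP1 and ATF4. T cells that become activated, divide or secrete cytokines are known to make more ER protein. The gene encoding calreticulin and that encoding the isomerase ERp57 are also known for a second task in T cells and other cells, since both proteins sit in the complex that loads peptides onto MHC class I.

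The promoters are shown because 5 of the 10 members hold the same known element there. That element is known from promoters of ER chaperone genes, so its matches describe the members and are no independent test of them. The ER stress response element, searched here on both strands as CCAAT, any 9 bases, then CCACG, is known as a site where the factor NF-Y takes the CCAAT end and ATF6 the CCACG end. In RefSeq windows of GRCm38.p6 from 250 bases before to 50 bases after each gene's start, these 5 (Hspa5, Hsp90b1, Calr, Canx and Pdia6) held it, against 0.137% of the 27025 genes with a window (0.119% of 32851 windows). Hsp90b1 held it at 2 places, on opposite strands. The 6 matches are printed 5′ to 3′ on the strand of the match with 8 flanking bases on each side, and the capitals mark CCAAT and CCACG.
Hspa5, chr2:34772025-34772043, plus strand, 46 bases before the start: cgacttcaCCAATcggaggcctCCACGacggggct
Hsp90b1, chr10:86705638-86705656, minus strand, 193 bases before the start: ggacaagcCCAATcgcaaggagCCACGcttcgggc
Hsp90b1, chr10:86705533-86705551, plus strand, 88 bases before the start: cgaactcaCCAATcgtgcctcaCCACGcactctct
Calr, chr8:84847075-84847093, plus strand, 143 bases before the start: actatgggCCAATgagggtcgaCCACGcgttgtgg
Canx, chr11:50325800-50325818, minus strand, 126 bases before the start: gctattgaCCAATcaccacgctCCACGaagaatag
Pdia6, chr12:17266491-17266509, plus strand, 79 bases before the start: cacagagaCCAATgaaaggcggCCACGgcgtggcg
The coordinates are those of the 19-base element in GRCm38.p6. The match lay on the gene's own strand in Hspa5, Canx, Pdia6 and the farther Hsp90b1 site, and on the opposite strand in Calr and the nearer Hsp90b1 site. The shorter CCACG alone, which the element contains, was in the windows of 8 members, against 35.5% of all genes. No member held the related element ATTGG, any base, then CCACG, which stood in 0.0365% of all windows, or TGACGTGG, known as an XBP1 element, which stood in 0.676%. These are matches of letters, and no binding was measured.

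**Figure D1:**
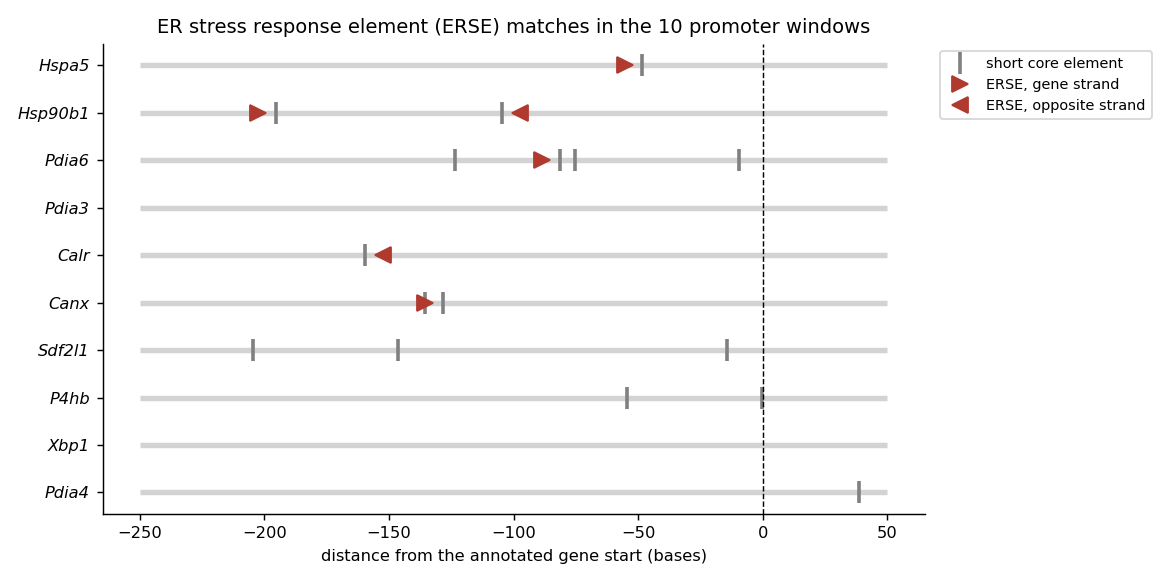
Positions of the promoter elements in the 10 members, plotted as bases from the gene's start (x axis) with 1 line per member. Arrowheads mark the ER stress response element and point along its strand, and ticks mark the short CCACG core. The ER stress response element stood in the windows of Hspa5, Hsp90b1 (at 2 places), Calr, Canx and Pdia6, between 46 and 193 bases before the start, and the CCACG letters alone stood in 8 of the 10 windows.

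Depth was low, which sets how firmly any member can be measured. Values below are the authors' normalized read counts, taken back from the deposited log2 to the linear scale and called normalized values. The steps between low values imply 45950 to 67023 reads on genes in NF-kB1-deficient imiquimod libraries, 20503 to 35608 in wild-type imiquimod libraries, 27120 to 47407 in NF-kB1-deficient sham libraries and 27970 to 69450 in wild-type sham libraries. A read was therefore worth between 0.488 and 1.98 normalized units. A gene listed at 0 was not detected at this depth, and in 5 libraries the table's lowest value hides 1 or 2 reads. Gapdh, which every cell uses, was listed at 0 in 5 libraries. Of the labelled cell type's markers Tcrd was between 14.1 and 76.8 and Tcrg-C2 between 1.09 and 28.3 in all 12 libraries. Trdc, Tcrg-C1 and Tcrg-V4 were listed at 0 in all 12. The alpha beta T cell gene Tcrb was at 57.4 to 103 in every library, with Cd4, Trac, Trbc1 and Trbc2 listed at 0. From the same list, Tcra ran from 0 to 14.2, Cd8b1 from 0 to 17.3 and Cd8a from 0 to 2.59.

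The 10 members together were highest in the 3 wild-type imiquimod libraries. Their summed normalized value was 127, 126 and 136 in NF-kB1-deficient imiquimod libraries and 299.6, 252 and 287 in wild-type imiquimod libraries, against 75.7, 54.7 and 118 in NF-kB1-deficient sham libraries and 55.2, 52.5 and 142 in wild-type sham libraries. The lowest wild-type imiquimod library, at 252, stood above the highest of the 9 others, at 142. The NF-kB1-deficient imiquimod libraries lay closest to each other, and they lay within the range of the wild-type sham libraries because of 1 library, wild-type sham replicate 3. As a share of each library's summed value the members took 0.394% ± 0.0160 in the NF-kB1-deficient imiquimod group and 0.731% ± 0.0737 in the wild-type imiquimod group, against 0.245% ± 0.0902 in the NF-kB1-deficient sham group and 0.241% ± 0.144 in the wild-type sham group (SD, n = 3 each). Hspa5 gave 18.2% to 45.6% of the members' sum. Without it, the sums were 70.6 to 101 in NF-kB1-deficient imiquimod libraries and 168 to 229 in wild-type imiquimod libraries, against 31.8 to 90.9 in NF-kB1-deficient sham libraries and 28.6 to 82.0 in wild-type sham libraries, so the order of the wild-type imiquimod libraries over the rest did not rest on that gene. In these bulk libraries fewer cells with a transcript and less of it per cell cannot be told apart.

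**Figure D2:**
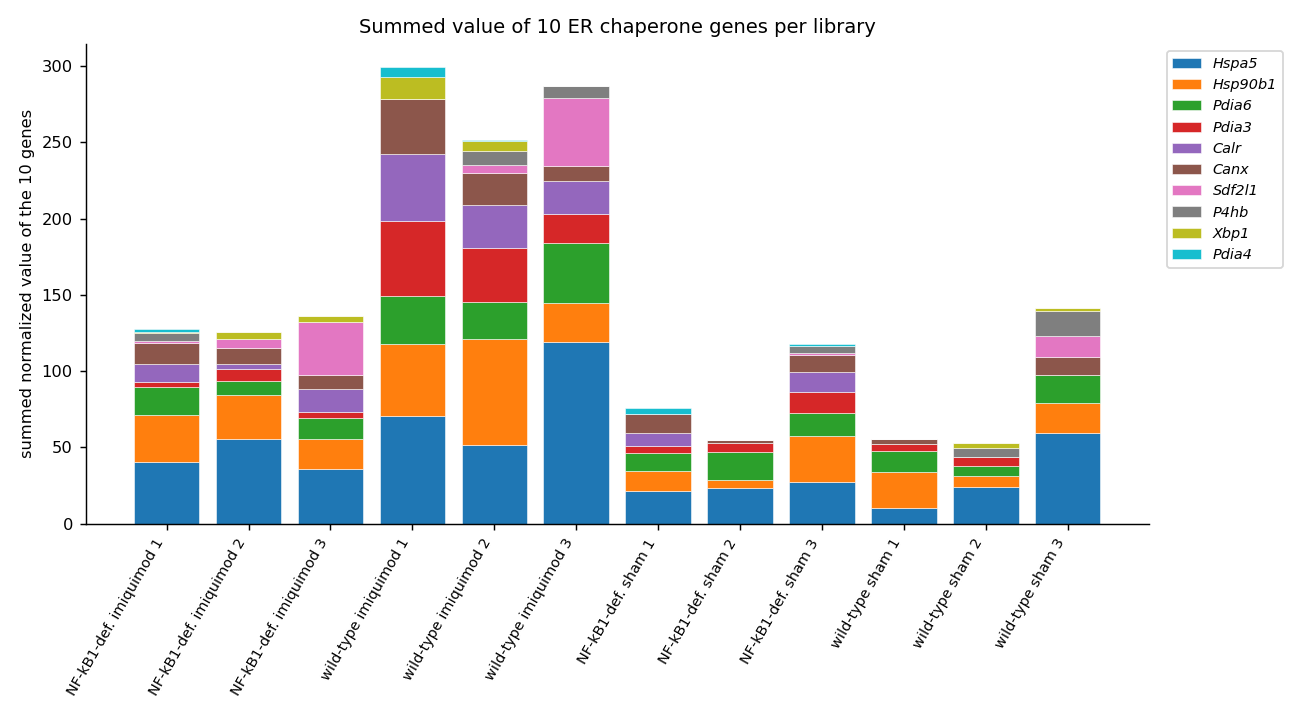
Summed normalized value of the 10 members in each library (y axis, linear scale) as a stacked bar with 1 colour per gene, by group and replicate. The wild-type imiquimod libraries sit between 252 and 299.6, above all 9 others, of which wild-type sham replicate 3 is highest at 142.

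Hspa5 encodes BiP, the HSP70-type chaperone of the ER, and was the member with the highest mean over the 12 libraries, 44.7. Its normalized value was 40.1, 55.2 and 35.7 in NF-kB1-deficient imiquimod libraries and 70.2, 51.6 and 119 in wild-type imiquimod libraries, against 21.3, 23.0 and 27.1 in NF-kB1-deficient sham libraries and 10.1, 23.9 and 59.6 in wild-type sham libraries. In NF-kB1-deficient cells both treatments lay apart, with every imiquimod library above every sham library, while in wild-type cells they overlapped through sham replicate 3. The group means were 43.6 ± 10.2 in NF-kB1-deficient and 80.2 ± 34.7 in wild-type cells with imiquimod, against 23.8 ± 2.95 in NF-kB1-deficient and 31.2 ± 25.6 in wild-type cells with sham (SD, n = 3 each). The 119 of wild-type imiquimod replicate 3 stood for about 60 reads and the 70.2 of replicate 1 for about 67, because replicate 3 was the shallowest library. The gene (Entrez ID 14828) lies at chr2:34772090-34776529 on the plus strand of GRCm38.p6 and overlaps Rabepk at its 3' side, and Rabepk itself reached 3.91 at most.

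Hsp90b1 encodes GRP94, the HSP90-type chaperone of the ER, which folds integrins and Toll-like receptors (Entrez ID 22027, chr10:86690841-86705444, minus strand, GRCm38.p6). It stood at 30.9, 29.0 and 19.8 in NF-kB1-deficient imiquimod libraries and at 47.7, 69.5 and 25.7 in wild-type imiquimod libraries, against 12.9, 5.47 and 30.4 in NF-kB1-deficient sham libraries and 23.9, 7.35 and 19.3 in wild-type sham libraries. The wild-type imiquimod values were all above the wild-type sham values, the lowest of them only just, at 25.7 against 23.9. The NF-kB1-deficient groups overlapped, since sham replicate 3, at 30.4, was above 2 of the 3 imiquimod libraries. Sdf2l1 encodes a partner of the BiP cycle that works with ER J-domain proteins. It was at 1.0, 5.59 and 34.7 in NF-kB1-deficient imiquimod libraries and at 0, 5.79 and 44.6 in wild-type imiquimod libraries, against 0, 0 and 1.26 in NF-kB1-deficient sham libraries and 0, 0 and 13.7 in wild-type sham libraries. In each group the replicate labelled 3 held most of the Sdf2l1 signal, and the groups overlapped in every comparison.

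Calr encodes calreticulin, the soluble lectin chaperone that also buffers ER calcium (Entrez ID 12317, chr8:84842088-84846931, minus strand, GRCm38.p6). Its values were 11.3, 2.79 and 15.4 in NF-kB1-deficient imiquimod libraries and 43.5, 28.6 and 21.8 in wild-type imiquimod libraries, against 8.09, 0 and 12.7 in NF-kB1-deficient sham libraries and 0 in all 3 wild-type sham libraries. The wild-type imiquimod values stood for about 11 to 42 reads each, and all 3 lay above every other library. Canx encodes calnexin, the membrane-bound lectin chaperone that binds the same sugar. Canx was at 14.3, 10.8 and 8.76 in NF-kB1-deficient imiquimod libraries and at 36.2, 20.5 and 9.90 in wild-type imiquimod libraries, against 12.9, 2.19 and 11.3 in NF-kB1-deficient sham libraries and 3.35, 0 and 11.8 in wild-type sham libraries. Both lectin genes were highest in wild-type imiquimod replicate 1, and for Canx the third wild-type imiquimod library lay within the sham range.

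Of the 4 disulfide isomerase genes, Pdia6 and Pdia3 carried most of the signal. Pdia6 encodes the isomerase P5, which works with BiP (Entrez ID 71853, chr12:17266589-17284785, plus strand, GRCm38.p6). It was at 18.5, 9.08 and 13.6 in NF-kB1-deficient imiquimod libraries and at 31.4, 24.2 and 39.6 in wild-type imiquimod libraries, against 11.8, 18.6 and 15.1 in NF-kB1-deficient sham libraries and 13.4, 6.35 and 18.6 in wild-type sham libraries. All 3 wild-type imiquimod libraries exceeded the 9 others, among which the groups overlapped. Pdia3 encodes ERp57, the isomerase that calreticulin and calnexin bring to their clients (Entrez ID 14827, chr2:121413902-121438687, plus strand, GRCm38.p6). It was at 3.51, 8.38 and 3.89 in NF-kB1-deficient imiquimod libraries and at 49.3, 35.2 and 18.8 in wild-type imiquimod libraries, against 5.15, 5.47 and 13.8 in NF-kB1-deficient sham libraries and 4.47, 5.86 and 0 in wild-type sham libraries. Here too, as for Calr and Pdia6, the wild-type imiquimod libraries lay above all others. The share of all tested genes with this order was not counted, so the order is not shown to be particular to the members. P4hb encodes PDI itself, and Pdia4 the related ERp72. P4hb was at 5.26, 0 and 0 in NF-kB1-deficient imiquimod libraries and at 0, 8.95 and 7.92 in wild-type imiquimod libraries, against 0, 0 and 5.03 in NF-kB1-deficient sham libraries and 0, 6.10 and 16.1 in wild-type sham libraries. Pdia4 was at 1.5, 0 and 0 in NF-kB1-deficient imiquimod libraries and at 6.64, 1.05 and 0 in wild-type imiquimod libraries, against 3.68, 0 and 1.26 in NF-kB1-deficient sham libraries and 0 in wild-type sham libraries. Their highest values stood for about 13 reads of P4hb in wild-type sham replicate 3 and about 6 reads of Pdia4 in wild-type imiquimod replicate 1, and neither gene set any group apart.

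Xbp1 encodes the transcription factor that IRE1 splices in the unfolded protein response, and the counts do not tell its spliced form from the unspliced one. It was at 1.0, 4.89 and 4.54 in NF-kB1-deficient imiquimod libraries and at 14.7, 6.32 and 0 in wild-type imiquimod libraries, against 0 in the 3 NF-kB1-deficient sham libraries and 0, 2.93 and 2.48 in wild-type sham libraries. The NF-kB1-deficient imiquimod libraries were thus all above the sham libraries of that genotype, at about 2, 7 and 7 reads, and the highest library stood for about 14 reads. In that genotype the imiquimod libraries held 45950 to 67023 estimated reads and the sham libraries 27120 to 47407. A listed 0 in NF-kB1-deficient sham replicate 1 can hide 1 read. The part of depth in this order was not tested. How many genes with such low values show the same order was not counted, so it is not shown to be particular to Xbp1.

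**Figure D3:**
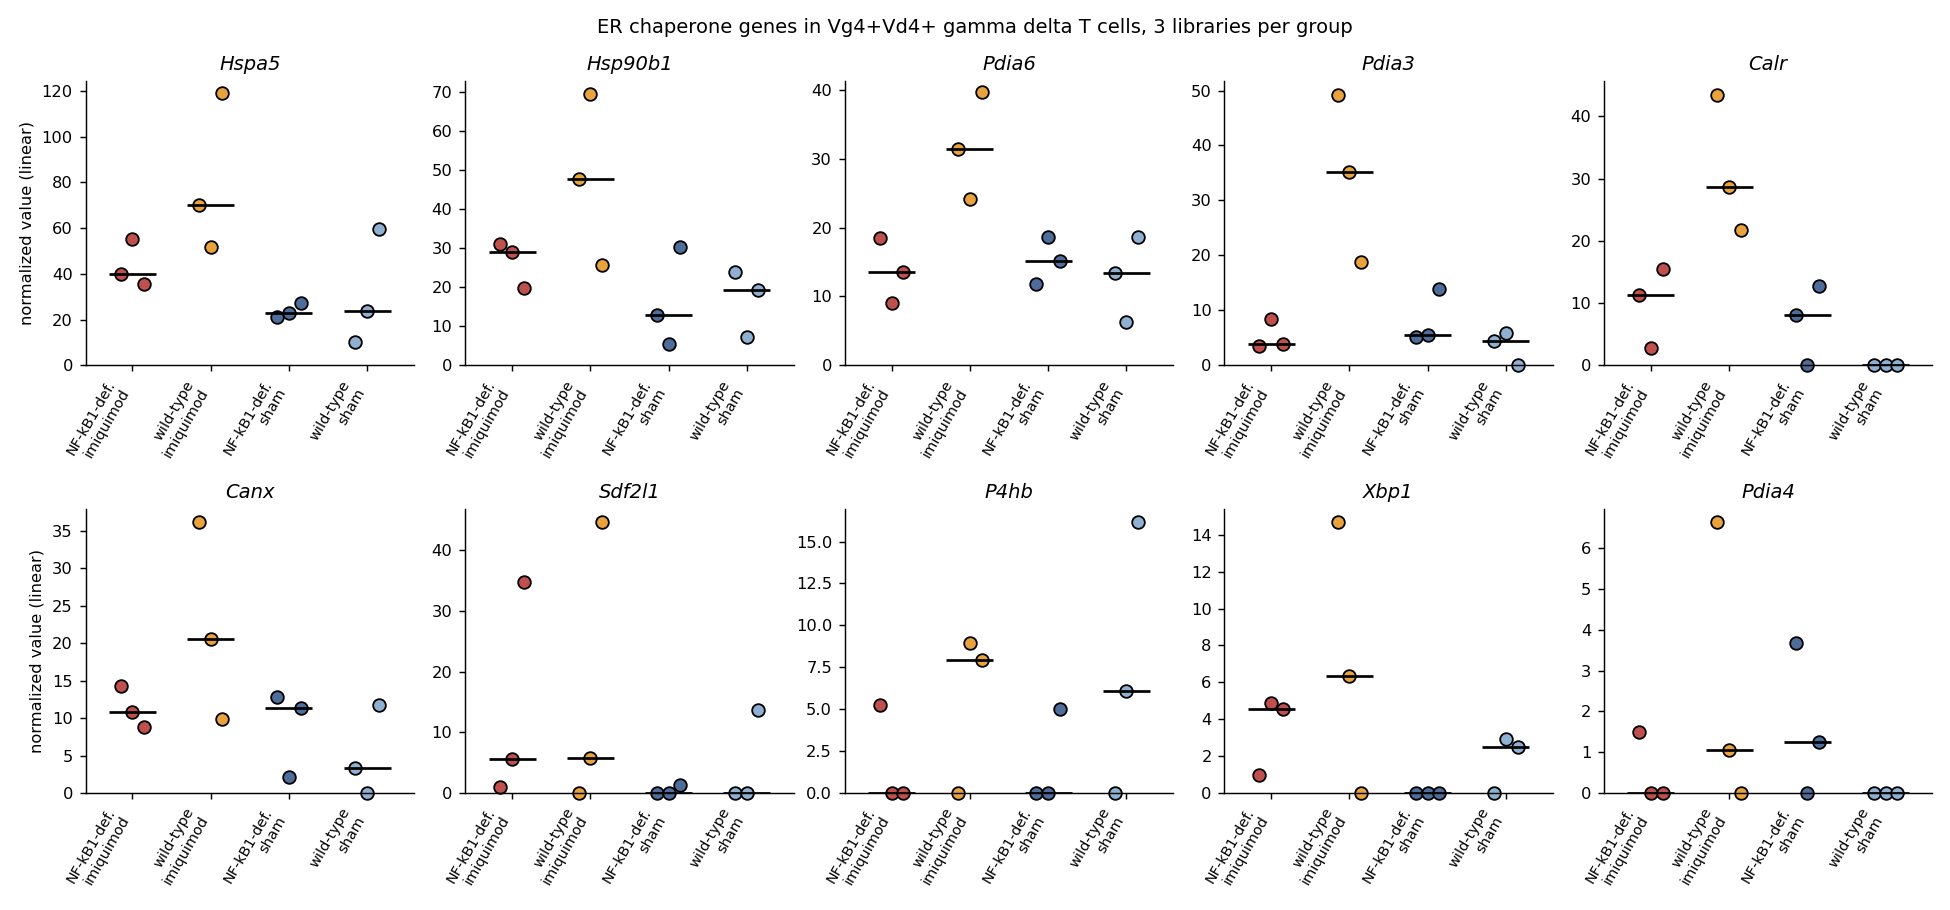
Normalized value of each of the 10 members in each of the 12 libraries (y axis, linear scale, set separately for each panel), by group, with 1 panel per gene and a line at the group median. Calr, Pdia3 and Pdia6 have all 3 wild-type imiquimod libraries above the 9 others, an order whose share among all tested genes was not counted. Sdf2l1 varies more within groups than between them.

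How the members vary among themselves is a description over 12 libraries that share depth and group structure. Of the 45 pairs, Pearson's r of log2(value + 1) was highest for Canx with Hsp90b1 at 0.793, Calr with Canx at 0.760 and Calr with Hsp90b1 at 0.706. Pdia3 correlated with Calr at 0.697 and Hspa5 with Sdf2l1 at 0.648, while the lowest pair was Pdia4 with Sdf2l1 at -0.447. Among tested genes outside the set, the pattern of Hspa5 was most like those of Pa2g4 (0.885), Rpl26 (0.865), Snhg3 (0.864) and Rn18s-rs5 (0.851). That of Hsp90b1 was most like those of Cfl1 (0.845), Ddx21 (0.831), Atp5g3 (0.791) and Rpl35 (0.789). Pa2g4 and Ddx21 are known for ribosome production, Rpl26 and Rpl35 are ribosomal protein genes, and Cfl1 encodes an actin-severing protein.

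Tests were run on the 1571 genes whose normalized values averaged at least 5 across all 12 libraries, with limma on log2(value + 1) and Benjamini-Hochberg adjustment over those genes. Called means an adjusted p under 0.05. Of the 10 members 7 passed this filter, and P4hb, Xbp1 and Pdia4, with means of 4.12, 3.07 and 1.18, were not tested. The 7 also had a mean of at least 5 over the 9 libraries outside the wild-type imiquimod group. Folds on this scale understate the change of genes with low values. The comparisons share groups with each other, so their values are given side by side only.

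Imiquimod against sham in wild-type cells was the 1 comparison in which a member was called. Calr rose, to 21.8 to 43.5 in imiquimod libraries, against a listed 0 in all 3 sham libraries. It was the 1 member of 7 that passed the test (adjusted p = 0.00284), where 3.25% of all tested genes were called and 1.65% were called higher. No fold is given for Calr because its sham values were all listed at 0. All 7 members had a positive log2 fold change, against 48.1% of all tested genes, and their median was 1.58 (1.53 without Calr), against a median of -0.07 over all tested genes. Just short of the threshold, Hspa5 differed by a log2 fold change of 1.58 ± 0.49 (SE, 95% interval 0.61 to 2.56, adjusted p = 0.0503) and Pdia3 by 3.30 ± 1.05 (1.24 to 5.37, adjusted p = 0.0554). The other values were 2.43 ± 1.02 for Canx (adjusted p = 0.154), 1.48 ± 0.63 for Hsp90b1 (0.155), 1.33 ± 0.72 for Pdia6 (0.291) and 1.47 ± 1.41 for Sdf2l1 (0.597). Single libraries decide the Sdf2l1 value, which was 0.09 without wild-type imiquimod replicate 3, 2.85 without wild-type imiquimod replicate 1 and 2.76 without wild-type sham replicate 3. At an unadjusted p under 0.05 there were 5 members, all higher, where 8.98% of tested genes were. The groups did not overlap for 4 members, Calr, Pdia3, Pdia6 and Hsp90b1, against 10.7% of tested genes that were higher without overlap.

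Which members besides Calr pass depends on single libraries. Without wild-type sham replicate 3, which held the highest sham value of Hspa5, that gene's log2 fold change was 2.21 with an adjusted p of 0.00843, and without wild-type imiquimod replicate 2 it was 1.85 with an adjusted p of 0.0341. Leaving out any 1 of the NF-kB1-deficient sham libraries also took Hspa5 past the threshold (adjusted p of 0.0455, 0.0386 and 0.0469), and for 2 of them Pdia3 as well (0.0480 and 0.0390). Those libraries enter this contrast only through the shared spread and through the filter on the mean. Without replicates 1, 2 and 3 of them the filter passed 1605, 1604 and 1599 genes, against 1571. Calr passed in all 12 fits that left out 1 library, with an adjusted p of at most 0.0313. The number of all genes called was 51, and ranged from 26 (without wild-type sham replicate 3) to 73 (without wild-type imiquimod replicate 2) over these fits.

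Other gene lists also stood apart in the same wild-type imiquimod libraries. The summed value of the 14 proliferation genes was 75.3 to 112 in NF-kB1-deficient imiquimod libraries and 252 to 515 in wild-type imiquimod libraries, against 60.6 to 88.2 in NF-kB1-deficient sham libraries and 35.4 to 45.3 in wild-type sham libraries. Of the 8 proliferation genes tested, 4 were called higher with imiquimod in wild-type cells, but 1 without wild-type imiquimod replicate 3 and 2 without wild-type imiquimod replicate 1 or wild-type sham replicate 3. The T cell identity list, which holds Tcrd and Lck, summed to 163 to 194 in NF-kB1-deficient imiquimod libraries and to 85.8 to 115 in wild-type imiquimod libraries, against 124 to 264 in NF-kB1-deficient sham libraries and 169 to 185 in wild-type sham libraries. With imiquimod in wild-type cells both were called lower, Lck with a log2 fold change of -3.82 ± 0.76 (SE, adjusted p = 0.000290) and Tcrd, the labelled cell type's own receptor gene, with -1.73 ± 0.43 (adjusted p = 0.00905). They were 2 of 6 tested genes of that list, where 25 of 1571 tested genes were called lower. Of these 6, 2 were positive, Thy1 at 0.50 and Tcrg-C2 at 0.007, while Cd3d, at -2.45, and Cd247, at -0.72, were not called. The Tcrd call was lost when wild-type sham replicate 3 was left out, with an adjusted p of 0.0505, and likewise for replicate 1 of the wild-type imiquimod group, at 0.0574. Over the 20 alternatives Tcrd was called in 15, with a highest adjusted p of 0.299 by limma, and Lck was called in all 20. The list for macrophages, monocytes and dendritic cells summed to 0 to 10.4 in NF-kB1-deficient imiquimod libraries and 0 to 5.76 in wild-type imiquimod libraries. Its sums were 0 to 3.68 in NF-kB1-deficient sham libraries and 12.9 to 21.1 in wild-type sham libraries. From that list Lyz2, Csf1r, Cd74, Itgax, Cd14, Adgre1 and Tyrobp were at 0 in all 12. In the wild-type sham libraries the list's sum came only from Ccr2, at 14.5, 12.9 and 6.21, and in replicate 3 also from Fcer1g, at 14.9. Plasma cells are known for high levels of ER chaperones. Of 13 symbols on the plasma cell list 12 had a line (Igj had none), and 6 were above 0 in any library. The list summed to 0 to 17.2 in NF-kB1-deficient imiquimod libraries and 6.93 to 15.8 in wild-type imiquimod libraries, against 0 in NF-kB1-deficient sham libraries and 0 to 3.73 in wild-type sham libraries. In the wild-type imiquimod libraries that sum came from Prdm1, Irf4 and Sdc1, while Igkc, Ighg1, Ighg2c, Igha, Tnfrsf17 and Derl3 were listed at 0 in all 12 libraries and Jchain and Mzb1 were above 0 only in NF-kB1-deficient imiquimod replicate 3. B cell markers were at 0 in all libraries but 1, an NF-kB1-deficient imiquimod library at 2.92. The part of the proliferation, T cell, myeloid and plasma cell lists in the chaperone values was not tested. Whether myeloid or plasma cells were present was not tested either, and a sum over a list does not show it.

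Imiquimod against sham in NF-kB1-deficient cells gave no called member among the 7 tested, and no called gene among the 1571 (0%). At an unadjusted p under 0.05 there were 53 genes (3.37%) and 0 members. The largest of the members' log2 fold changes was that of Sdf2l1, 2.57 ± 1.41 (SE, 95% interval -0.22 to 5.35), followed by Hsp90b1 at 0.94 ± 0.63, Calr at 0.87 ± 1.14, Hspa5 at 0.83 ± 0.49 and Canx at 0.56 ± 1.02. Those of Pdia6, -0.16 ± 0.72, and Pdia3, -0.50 ± 1.05, were negative, and the adjusted p was 0.996 for all 7. Their median was 0.83, against 0.14 over all tested genes. Hspa5 was the 1 member whose groups did not overlap, where 6.11% of tested genes were higher without overlap, and its 95% interval ran from -0.15 to 1.81. The interval for Pdia3, -2.57 to 1.56, includes 0 and values in both directions, and it overlaps the 1.24 to 5.37 of wild-type cells. The interaction of Pdia3, given below, was not called (adjusted p = 0.30 by limma).

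**Figure D4:**
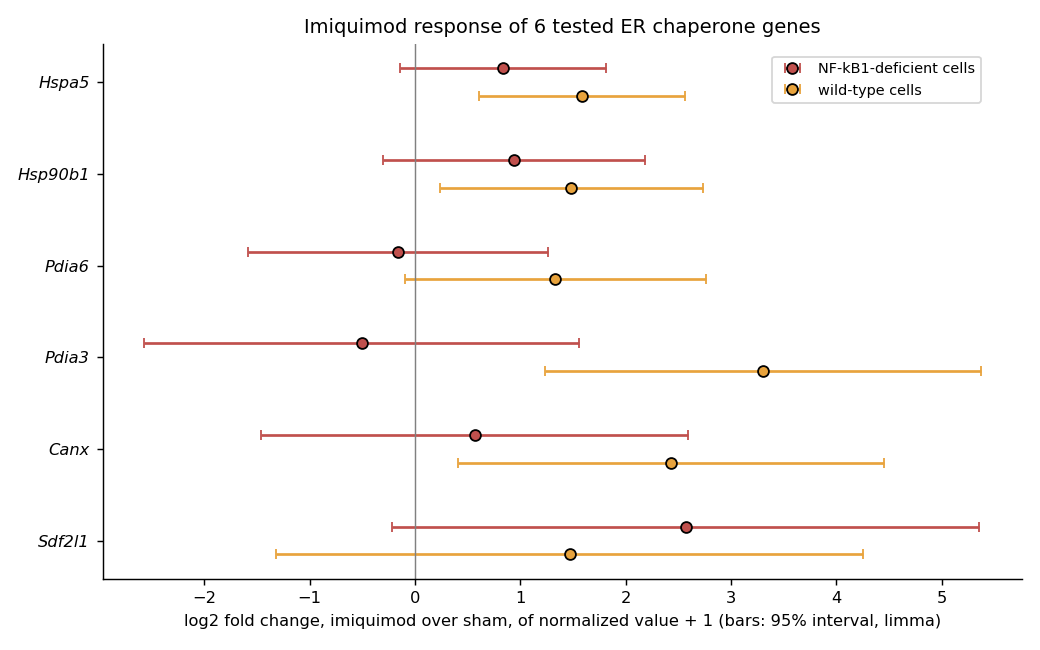
Log2 fold change of imiquimod over sham for 6 tested members (x axis, on log2 of the normalized value plus 1) in NF-kB1-deficient cells (upper point of each pair) and wild-type cells (lower point), with 95% intervals from limma. Calr is left out because its wild-type sham values are all 0. In wild-type cells all 6 points lie to the right of 0, and the points of both genotypes are farthest apart for Pdia3, at -0.50 and 3.30.

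NF-kB1-deficient against wild-type cells under imiquimod asks whether genotype alters the members' level in the inflamed state. None of the 7 was called, where 1.78% of tested genes were (28 of 1571). That count was 10, 4 and 9 without NF-kB1-deficient imiquimod replicates 1, 2 and 3, 18 without NF-kB1-deficient sham replicate 1, and 0 without trend and robust in eBayes. The members' count was 0 in all of these fits. Of the 7 log2 fold changes 1 was positive, against 53.7% of those of all tested genes, and the median was -0.80, against 0.13 over all tested genes. The lowest was that of Pdia3, -2.48 ± 1.05 (SE, 95% interval -4.55 to -0.42, adjusted p = 0.233), the 1 member with an unadjusted p under 0.05 (0.0188), where 14.3% of tested genes were. Calr was at -1.76 ± 1.14 (adjusted p = 0.502), Pdia6 at -1.18 ± 0.72 (0.480), Hspa5 at -0.80 ± 0.49 (0.480), Canx at -0.77 ± 1.02 (0.780) and Hsp90b1 at -0.74 ± 0.63 (0.637). Sdf2l1 stood at 0.20 ± 1.41 (0.957). For Pdia3, Calr and Pdia6 every NF-kB1-deficient library was below every wild-type library, where 10.3% of tested genes were lower without overlap. Scaling all libraries to equal totals moved the median of all tested genes by 0.20 in this comparison and by -0.17 for imiquimod in wild-type cells, and the members' medians were then -0.59 and 1.43.

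NF-kB1-deficient against wild-type cells under sham cream gave no called member and no called gene (0%). At an unadjusted p under 0.05 there were 96 genes (6.11%), of which Calr was the only member. Its unadjusted p was 0.0428 and its adjusted p 0.809 by limma. It was at 8.09, 0 and 12.7 in NF-kB1-deficient libraries, against a listed 0 in all wild-type libraries. The log2 fold changes were 1.33 ± 1.05 for Pdia3, 1.10 ± 1.02 for Canx, 0.32 ± 0.72 for Pdia6, -0.05 ± 0.49 for Hspa5, -0.19 ± 0.63 for Hsp90b1 and -0.90 ± 1.41 for Sdf2l1, each with a 95% interval that includes 0. The groups overlapped for all 7, where 9.36% of tested genes did not overlap.

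The interaction asks whether the response to imiquimod differed between genotypes, as the response in NF-kB1-deficient cells minus that in wild-type cells. No member was called, where 0.446% of tested genes were (7 of 1571). That count was 2 without NF-kB1-deficient sham replicate 3 or wild-type imiquimod replicate 3, 4 without NF-kB1-deficient imiquimod replicate 2, 12 without wild-type imiquimod replicate 2, and 0 without trend and robust in eBayes. Pdia3 had the lowest unadjusted p among the members, 0.0110, with a difference of -3.81 ± 1.48 on the log2 scale (SE, 95% interval -6.73 to -0.89, adjusted p = 0.30). Calr had an unadjusted p of 0.0120 and an adjusted p of 0.310. These were the 2 members at an unadjusted p under 0.05, where 10.8% of tested genes were. The other differences were -1.87 ± 1.45 for Canx (adjusted p = 0.692), -1.49 ± 1.02 for Pdia6 (0.634), -0.75 ± 0.70 for Hspa5 (0.766), -0.54 ± 0.89 for Hsp90b1 (0.867) and 1.10 ± 1.99 for Sdf2l1 (0.889). The members' median was -1.49 (-1.12 without Calr), against 0.24 over all tested genes. A call for Calr in wild-type cells and none in NF-kB1-deficient cells is therefore not shown to be a difference between the genotypes.

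By group mean, wild-type imiquimod cells were highest for every member but P4hb, which was highest in wild-type sham cells. The order of the remaining groups differed between members, and among the groups compared a call separated only the wild-type imiquimod cells from wild-type sham cells, for Calr. The isomerases Pdia3, Pdia4, Pdia6 and P4hb summed to 17.5 to 28.8 in NF-kB1-deficient imiquimod libraries and to 66.4 to 87.3 in wild-type imiquimod libraries, against 20.6 to 35.2 in NF-kB1-deficient sham libraries and 17.9 to 34.8 in wild-type sham libraries. The lectins Calr and Canx summed to 13.6 to 25.6 in NF-kB1-deficient imiquimod libraries and to 31.7 to 79.7 in wild-type imiquimod libraries, against 2.19 to 24.1 in NF-kB1-deficient sham libraries and 0 to 11.8 in wild-type sham libraries. By these sums the isomerases set the wild-type imiquimod libraries farthest from the rest, and there the NF-kB1-deficient imiquimod libraries overlapped both sham groups. By the lectin sum they overlapped the NF-kB1-deficient sham libraries but lay above all wild-type sham libraries.

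The rest of the ER folding pathway was read from 10 lists of 150 further genes, of which 46 were tested. None was called in any of the 5 comparisons, in either direction. For imiquimod in wild-type cells 30 of the 46 had a positive log2 fold change, with a median of 0.76, and 3 were higher and 1 lower at an unadjusted p under 0.05, where 8.98% and 10.9% of tested genes were. The list with most tested genes, the translocon, signal recognition and signal peptidase genes that pass chains into the ER, had 9 of 12 tested members positive, with a median of 1.30. Its summed value was 111 to 145 in NF-kB1-deficient imiquimod libraries and 199.9 to 245 in wild-type imiquimod libraries, against 79.9 to 148 in NF-kB1-deficient sham libraries and 97.8 to 162 in wild-type sham libraries, again with the wild-type imiquimod libraries above all others. The oligosaccharyltransferase, which adds the sugars that Calr and Canx read, had 5 of 6 positive (median 0.83), the cofactors of BiP and GRP94 had 2 of 3 (1.55) and the glycoprotein folding cycle 4 of 5 (0.56). The KDEL receptors and export genes had 4 of 6 (0.43), the sensors and regulators of the unfolded protein response 2 of 3 (0.43), other isomerases and oxidases 1 of 2 (0.56) and calcium handling 1 of 2 (0.08). ER-associated degradation, which removes chains that failed to fold, had 2 of 7 positive, with a median of -0.61. No prolyl isomerase on the list was tested.

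The gene with the lowest unadjusted p of each list is named here, and none was called. Atp2a2, the SERCA calcium pump of the ER, was at 0, 8.62 and 7.95 in NF-kB1-deficient imiquimod libraries and at 23.6, 13.0 and 9.90 in wild-type imiquimod libraries, against 9.31, 0 and 1.26 in NF-kB1-deficient sham libraries and 0, 3.42 and 0 in wild-type sham libraries. Its log2 fold change with imiquimod in wild-type cells was 3.24 ± 1.29 (SE, adjusted p = 0.133). The other tested calcium gene, Itpr2, which encodes a calcium release channel and is named after its values were seen, stood at -3.08 ± 1.34 (adjusted p = 0.161), with an interaction of 4.67 ± 1.89 (0.320). With imiquimod in wild-type cells Lman2, a cargo lectin, stood at 2.61 ± 1.14 (adjusted p = 0.164). Magt1, an oligosaccharyltransferase subunit, was at 2.30 ± 1.15 (0.241). Ppp1r15b, a phosphatase subunit from the list of unfolded protein response regulators, was at 1.88 ± 1.06 (0.317), also in that comparison. With imiquimod in NF-kB1-deficient cells, the BiP co-chaperone Dnajc3 was at 1.86 ± 1.03 and the translocon subunit Sec62 at 1.54 ± 0.84 (adjusted p = 0.996 for both). Between NF-kB1-deficient and wild-type cells, the degradation factor Selenos was at -2.25 ± 0.99 under sham (adjusted p = 0.809), the isomerase Tmx1 at -1.97 ± 1.23 under sham (0.931) and the cargo receptor Tmed9 at -1.21 ± 0.62 under imiquimod (0.360). The pathway medians were 0.12 for imiquimod in NF-kB1-deficient cells, -0.49 for genotype under imiquimod, -0.02 for genotype under sham and -0.21 for the interaction.

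**Figure D5:**
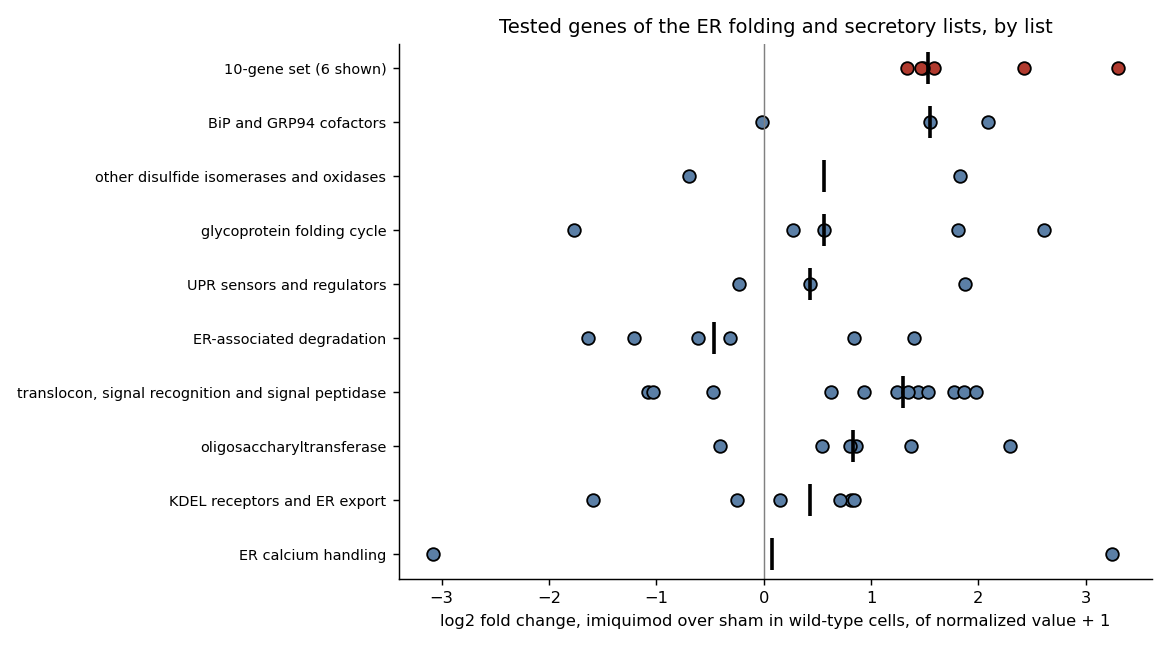
Log2 fold change of imiquimod over sham in wild-type cells (x axis) for the tested members and for the tested genes of each further ER list, with 1 point per gene and a tick at each list's median. Genes at 0 in all libraries of a group are left out (Calr, and 1 gene of ER-associated degradation). The translocon list, with 12 tested genes and a median of 1.30, lies mostly to the right of 0, and the degradation list lies mostly to the left.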

How the data were processed

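Per the labels' protocols, RNA came from Trizol and libraries from a QuantSeq 3' FWD kit. Per the submitters' processing notes the genome was mm10. Aligner, counter, annotation, strand setting and normalization were not given in the sources used here. Normalized read values on the log2 scale, in a table for all libraries, are what the authors deposited. Its columns were matched to samples by title, and 0 were unused. No 2 libraries were identical (0 of 66 pairs). Values were taken back to the linear scale. Low values lay within 0.01 read of whole reads in 71.3% to 80.3% of cases, too few for a count test, so depths are estimates.

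Tests used limma 3.58.1 in R 4.3.3 (data.table, version 1.17.8), tested on simulated data: log2(value + 1), mean of at least 5, 1 fit of 12 libraries with 4 group coefficients, eBayes with trend and robust (8 residual and a median of 145 prior degrees of freedom). SE is the moderated standard error. The alternatives were pseudocounts of 0.1 and 10, no filter, a mean of at least 20, equal totals, eBayes without trend and robust, a replicate block, only the 2 groups compared (not for the interaction) and leaving out each library.

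The members, lists and tests were chosen with earlier results of these data known. Named genes are all members; of each other list up to 4 called genes, otherwise the gene with the lowest unadjusted p; and the 4 genes most like each of the 2 members with the highest mean. Promoters and coordinates come from RefSeq, GRCm38.p6, to which 10 of 10 gene IDs matched.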

Additional observations from a re-analysis of the deposited data

How the results depend on the processing

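For imiquimod in wild-type cells 1 member was called, but 3 (Calr, Hspa5 and Pdia3) with a pseudocount of 10, and 1 to 3 when a library was left out. Calr was called in each setting that tested it, with an adjusted p of at most 0.0315. In the other 4 comparisons 0 members were called in every alternative run, which were 20 each and 19 for the interaction, where the fit of only the 2 groups compared does not apply. The count of all called genes ran from 11 to 73 for imiquimod in wild-type cells, from 0 to 1 in NF-kB1-deficient cells, from 0 to 1 for genotype under sham, from 0 to 42 for genotype under imiquimod and from 0 to 13 for the interaction. With a mean of at least 20, Hspa5 was called and Calr was not tested. Whether the samples pair by number cannot be told from their deviations, because all correlations were near 0. The 18 same-numbered pairs had correlations of -0.0098 to 0.0609, with a median of 0.0164. For 36 pairs with different numbers they ran from -0.0638 to 0.0372, with a median of -0.0039. With the replicate block as a term 3 members were called (Calr, Hspa5 and Pdia3), which does not decide whether samples pair.

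Only uncalled values changed sign. With a pseudocount of 10 Sdf2l1 for genotype under imiquimod was -0.056. Leaving out 1 library gave -1.18 to 1.58 there. For imiquimod in NF-kB1-deficient cells it gave -0.29 to 1.60 for Calr, -0.11 to 0.95 for Canx and -0.39 to 0.087 for Pdia6. For genotype under sham it gave -0.66 to 0.57 for Hspa5, -0.77 to 0.37 for Hsp90b1, -0.080 to 0.63 for Pdia6 and -1.55 to 0.39 for Sdf2l1. For the interaction it gave -1.10 to 0.034 for Hsp90b1 and -0.28 to 2.48 for Sdf2l1. The cause was not tested. P4hb, Pdia4 and Xbp1 reached about 13, 6 and 14 reads at most in any library.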

Other observations

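Calr and Pdia3 also serve MHC class I peptide loading, and 7 other genes of that task were tested. With imiquimod in wild-type cells 1 of these was called (H2-K1, lower), 1 of the 7 log2 fold changes was positive and their median was -0.84. For NF-kB1-deficient against wild-type cells under imiquimod 2 were called (H2-K1 and B2m, higher), 6 were positive and the median was 0.70. H2-K1, a class I heavy chain, stood at 184, 159 and 163 in NF-kB1-deficient imiquimod libraries and at 48.2, 80.9 and 37.0 in wild-type imiquimod libraries, against 110, 158 and 169 in NF-kB1-deficient sham libraries and 143, 150 and 108 in wild-type sham libraries. B2m, its light chain, stood at 215, 177 and 154 in NF-kB1-deficient imiquimod libraries and at 102, 72.7 and 68.7 in wild-type imiquimod libraries, against 172, 121 and 139 in NF-kB1-deficient sham libraries and 133, 144 and 157 in wild-type sham libraries. Both were lowest in wild-type imiquimod libraries, where Calr and Pdia3 were highest. For NF-kB1-deficient against wild-type cells under imiquimod, H2-K1 was called higher, with a log2 fold change of 1.66 ± 0.31 (SE, adjusted p = 0.000136 by limma), as was B2m, with 1.16 ± 0.29 (adjusted p = 0.0152). With imiquimod in wild-type cells H2-K1 was called lower, with -1.32 ± 0.31 (adjusted p = 0.00338), and B2m was at -0.84 ± 0.29 (0.0849). In that comparison Tap1 stood at 0.45 ± 1.10 (adjusted p = 0.859), Tapbp at -0.21 ± 1.10 (0.933) and H2-D1 at -0.21 ± 0.46 (0.843). The interaction was 1.55 ± 0.44 for H2-K1 (adjusted p = 0.0869) and 1.18 ± 0.41 for B2m (0.257). Without trend and robust in eBayes none of these calls held, with adjusted p of 0.299 for H2-K1 and 0.444 for B2m between genotypes under imiquimod and 0.288 for H2-K1 with imiquimod in wild-type cells. With no filter the wild-type H2-K1 call (adjusted p = 0.202) and the B2m call (0.540) were lost, and B2m also missed the threshold without NF-kB1-deficient imiquimod replicate 1 (0.161) or 2 (0.111).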
